A study of Mus musculus with 19 samples.

Results

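The 38 genes described here are genes that mark microglia, the resident macrophages of the brain, together with the chains of complement C1q that microglia make. They were given as a list of symbols, and 37 of the 38 had a probe set of their own among the 18193 genes that the arrays measure. Lyn, a kinase that acts below receptors of immune cells, was not analysed here, because no probe set carried its symbol alone. Of the 37 genes measured, 31 passed the filter on dim genes and were tested with 12148 genes in all. C5ar1, Cd86, Itgam, P2ry13, Tlr4 and Tmem119 did not pass.

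The 19 arrays hold RNA of cells isolated directly from the cerebellum of C57BL/6 mice, in 5 groups. Nestin+ neuronal progenitors (NEP, n = 4) and Math1+ neuronal progenitors (GNP, n = 4) were compared with CD133+, Lin- cerebellar progenitors (NSC, n = 3, numbered 1, 2 and 6 in their titles) to define what is particular to NEP. Tumor cells came from mice of 2 genotypes, Nestin-CreERT2/Ptch1C/C (NEP tumor, n = 4) and Math1-CreERT2/Ptch1C/C (GNP tumor, n = 4), which carry a conditional allele of Ptch1, the receptor that restrains Hedgehog signalling, and a tamoxifen-inducible Cre driven by Nestin or Math1 sequences. They were compared for how alike the 2 kinds of tumor are. Age, sex and pooling of the mice are not given, nor is it said whether arrays of a group came from separate animals, so p-values measure only the spread between arrays. Neither the progenitors nor the tumor cells are described as sorted against microglia, and the markers removed by the Lin- selection of NSC are not listed.

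Microglia depend on signals through the receptor Csf1r, sense their surroundings through Cx3cr1 and the ADP receptor P2ry12, and take up debris and synapses. The receptor Trem2 and Fc receptors signal through the adaptors Tyrobp and Fcer1g, which carry ITAM motifs. C1q, built from the chains C1qa, C1qb and C1qc, starts the classical complement cascade, and in the developing brain it tags synapses for removal by microglia. The transcription factors PU.1 (Spi1) and Irf8 drive the myeloid program, and Sall1 keeps microglia apart from other macrophages. Several of the listed genes are not made by microglia alone: Sall1 is also made by neural progenitors, Mertk by astrocytes, and Tgfbr1 by most cells.

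Promoter windows were read for 27 of the 38 genes from RefSeq (GRCm38.p6), each from 250 bases before to 50 bases after a start site. The letters GAGGAAGT, a common form of the PU.1 site, were searched on both strands. They lay in a window of 3 of the 27 genes (11.1%), against 997 of 27025 genes with a window (3.69%). These 3 windows, of C1qc, Cd53 and Ctss, are shown because they are the ones that hold the letters. They are given without their last 20 bases, 5′ to 3′ on the strand of the gene. Capitals mark ACTTCCTC, which is GAGGAAGT read on the opposite strand.
C1qc promoter: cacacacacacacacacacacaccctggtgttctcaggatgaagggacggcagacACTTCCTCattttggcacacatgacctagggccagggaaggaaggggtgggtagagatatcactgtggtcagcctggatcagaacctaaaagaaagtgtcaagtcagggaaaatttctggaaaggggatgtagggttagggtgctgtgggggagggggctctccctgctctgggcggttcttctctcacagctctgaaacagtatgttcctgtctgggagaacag
Cd53 promoter: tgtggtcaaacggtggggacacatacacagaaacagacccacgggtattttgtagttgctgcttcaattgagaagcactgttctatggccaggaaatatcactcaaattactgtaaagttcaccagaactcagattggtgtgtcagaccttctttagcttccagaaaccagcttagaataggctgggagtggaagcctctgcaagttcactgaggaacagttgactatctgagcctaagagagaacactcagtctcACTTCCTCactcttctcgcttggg
Ctss promoter: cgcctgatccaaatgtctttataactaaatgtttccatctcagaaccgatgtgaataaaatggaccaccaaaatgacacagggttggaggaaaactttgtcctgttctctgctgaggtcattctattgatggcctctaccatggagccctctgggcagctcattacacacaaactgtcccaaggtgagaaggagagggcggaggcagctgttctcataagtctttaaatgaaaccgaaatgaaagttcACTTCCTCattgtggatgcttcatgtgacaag
The C1qc window is chr4:136892885-136893164 on the minus strand, and the match starts 195 bases before the start site. For Cd53, which lies at chr3:106790120-106790399 on the minus strand, it starts 6 bases after the start site. In the Ctss window, chr3:95526536-95526815 on the plus strand, it starts 2 bases before the start site. A combined PU.1 and IRF form (GGAA, any base, then TGAAA, on both strands) was found for Cd68 alone among the 27 genes (3.7%), against 229 genes of all (0.847%). A match describes letters in a window and is not evidence of binding.

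All values below are the deposited log2 expression values of 1 probe set per gene, the one with the highest mean over the 19 arrays. Levels of different probe sets are not comparable, so each gene is compared only with itself. The median of an array, taken over all probe sets other than controls, was between 2.44 and 2.57. No detection calls were used, so a gene whose group mean lies below the median is called dim, and a difference against a dim group can be smaller than the true one. In bulk RNA, fewer cells of a type and less RNA per cell cannot be told apart. The array titles carry 1 shared number in NEP and GNP (8 arrays) and another in NSC and both tumors (11 arrays), and do not say what it stands for. Spiked-in poly-A controls averaged 8.69 ± 0.26 (SD) in the first set and 6.50 ± 0.27 in the second. The sets are called runs below, and between groups of different runs, run and group cannot be told apart. The markers used for the labels were measured too. Nes averaged 5.87 ± 0.19 (SD, n = 4) in NEP and 3.49 ± 0.35 (n = 4) in GNP, Atoh1 (Math1) 3.95 ± 1.59 in NEP and 8.85 ± 0.09 in GNP, and Prom1 (CD133) 8.08 ± 0.11 (n = 3) in NSC.

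The microglia genes split the NEP group into 2 pairs of arrays. All 37 genes were higher on NEP arrays 1 and 2 than on any of the other 17 arrays, by a median of 3.01 on the log2 scale (range 0.15 to 5.43), counted from the lower of the pair. NEP arrays 1 and 2 themselves differed by a median of 0.02. Array 2 exceeded array 3 by a median of 4.63 and by at least 0.42 in 37 of 37 genes, and array 3 exceeded array 4 in 33 genes, by a median of 0.65. Array 3 was above the highest GNP array for 31 of the 37 genes and array 4 for 17. None of these comparisons of single arrays was counted over all genes. Counted as genes at or above the median of their array, 36 and 37 of the 37 were so on NEP arrays 1 and 2, 21 on array 3 and 11 on array 4. The corresponding counts were 4 to 8 on the GNP arrays, 23 on each NSC array, 22 to 24 on the NEP tumor arrays and 25 to 28 on the GNP tumor arrays.

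**Figure D1:**
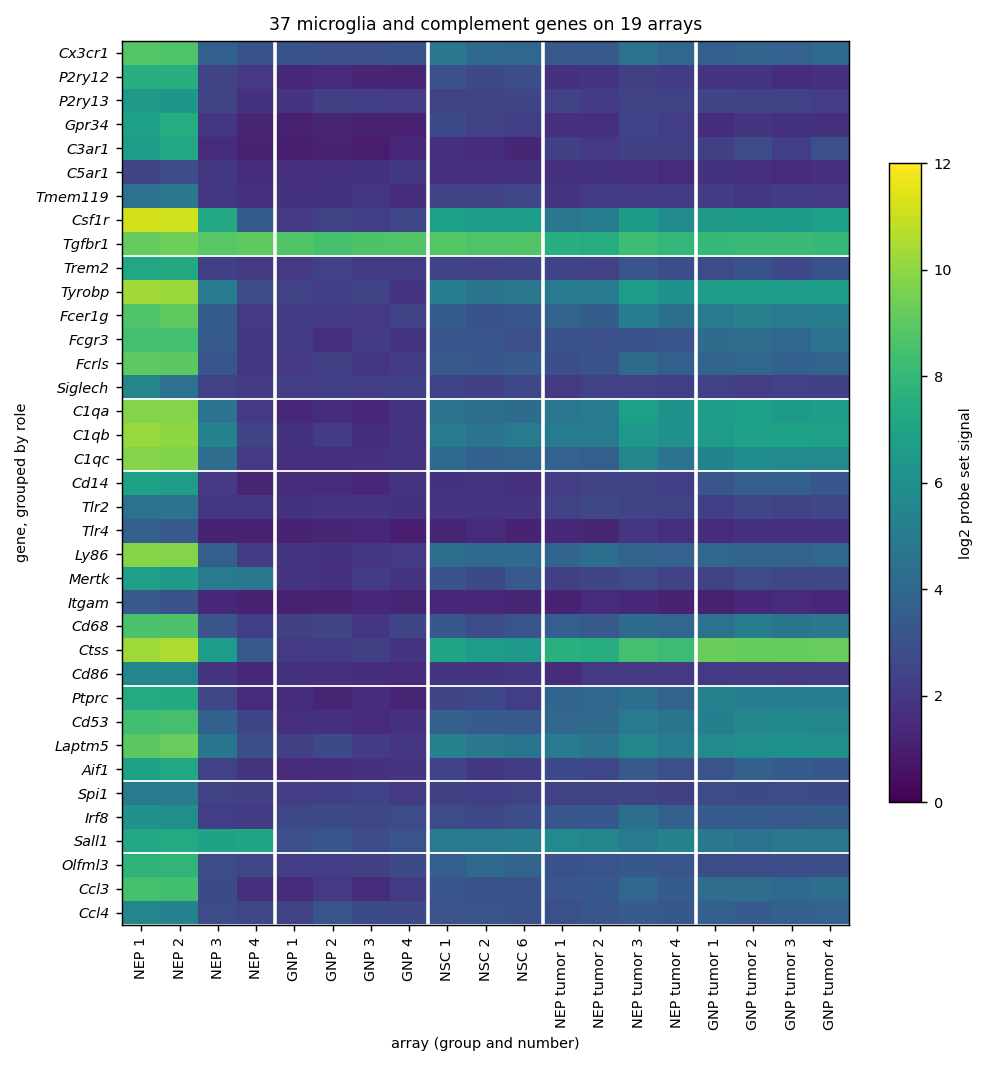
Deposited log2 expression of the 37 measured microglia and complement genes (rows, by role) on each of the 19 arrays (columns, by group), with colour from 0 to 12. NEP arrays 1 and 2 are the highest for all 37 genes, and the GNP arrays are low for most.

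The map of the 37 genes over all arrays shows this step inside the NEP group and a smaller one inside the NEP tumor group. There arrays 3 and 4 were both above arrays 1 and 2 for 22 of the 37 genes, a count not made over all genes. The median SD of the genes within a group was 3.05 for NEP, against 0.16 for GNP, 0.13 for NSC, 0.34 for NEP tumor and 0.12 for GNP tumor. The fit of all 5 groups pools the spread of each gene. For genes with a wide spread in NEP, this widens the error of comparisons without NEP, those between tumors included. For comparisons with NEP it narrows the error of such genes, because the other groups vary less. Comparisons are therefore given from that fit and, where it changes the count, from a fit of only the groups compared.

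Between NEP and GNP, which lie in the same run, 30 of the 31 tested genes were higher in NEP (limma, adjusted p under 0.05) and 0 were lower. Of all tested genes, 29.6% were called higher and 39.9% lower. The 31 genes differed by a median of 3.51 (range 0.43 to 5.95), and all genes by a median of -0.11. Irf8 was the gene without a call, at 1.41 (limma, adjusted p = 0.0768). In a fit of all probe sets, another one of Irf8 gave 0.91 and was under the threshold (limma, adjusted p = 0.0259). A fit of only the NEP and GNP arrays called 12 of the 31 higher (25.5% of all genes higher, 34.6% lower), with the same differences and wider errors. The 12 were the 3 C1q chains, the receptors Csf1r, P2ry12 and Tgfbr1, and Ctss, Mertk, Tyrobp, Cd53, Laptm5 and Sall1.

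**Figure D2:**
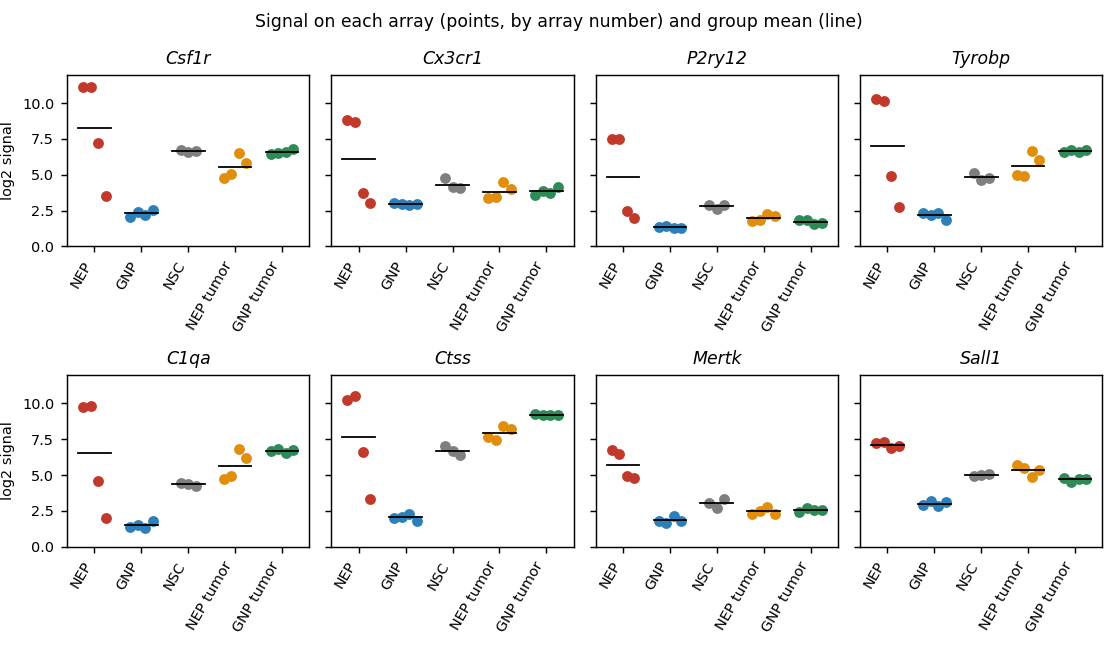
Log2 expression of Csf1r, Cx3cr1, P2ry12, Tyrobp, C1qa, Ctss, Mertk and Sall1 on each array (points), by group, with a line at each group mean. For all but Mertk and Sall1, NEP arrays 3 and 4 lie far below arrays 1 and 2.

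Among the sensor and motility receptors, 6 of 6 tested genes were higher in NEP. Csf1r, the receptor for CSF1 and IL-34, measured 11.16, 11.12, 7.22 and 3.51 on the 4 NEP arrays and 2.03, 2.39, 2.22 and 2.56 on the 4 GNP arrays. Every NEP array was above every GNP array, but array 4 stood only 0.95 above the highest of them. The mean difference was 5.95 ± 1.13 (SE), a 61.8-fold difference (limma, adjusted p = 0.000186). Cx3cr1, the receptor for fractalkine, measured 8.83, 8.70, 3.74 and 3.03 in NEP against 2.92 to 3.02 in GNP, so that NEP array 4 reached the level of GNP. P2ry12, the ADP receptor that guides microglial processes, measured 7.52, 7.50, 2.46 and 2.00 in NEP and 1.26 to 1.42 in GNP. Both its groups were separate, with a difference of 3.54 ± 0.92 (limma, adjusted p = 0.00267). Gpr34, a lysophospholipid receptor, and C3ar1, the receptor for the complement fragment C3a, differed by 3.22 and 3.05. Tgfbr1, a receptor for TGF-beta, measured 8.89 to 9.36 in NEP and 8.53 to 8.73 in GNP. These separate groups differed by 0.43 ± 0.14 (limma, adjusted p = 0.0134). Its other probe sets gave -0.07 and -0.14 in a fit of all probe sets, without a call (limma, adjusted p = 0.711 and 0.386). Neither passed the filter on dim genes. Tmem119, a membrane protein used to mark microglia, did not pass the filter, with 4.48, 4.79, 1.96 and 1.67 in NEP and 1.58 to 1.89 in GNP. It was above the array median on NEP arrays 1 and 2 alone among all 19, and so was P2ry13, an ADP receptor. Among the complement receptors, C5ar1 reached the median on NEP array 2 only.

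The adaptors and Fc receptors repeated this picture, with 6 of 6 tested genes higher in NEP. Tyrobp, the adaptor for Trem2, measured 10.32, 10.18, 4.95 and 2.72 in NEP against 1.85 to 2.34 in GNP. All NEP arrays were above GNP, and the difference was 4.86 ± 1.18 (limma, adjusted p = 0.00153). Trem2, the lipid receptor that signals through it, measured 7.13, 7.31, 2.25 and 2.03 in NEP and 2.00 to 2.34 in GNP. Here arrays 3 and 4 lay inside the GNP range. Fcer1g, the common chain of Fc receptors, measured 8.71, 9.05, 3.54 and 2.04 in NEP and 1.97 to 2.38 in GNP, so that array 4 overlapped GNP. The other 3 genes were Fcgr3, an IgG receptor, Fcrls, an Fc receptor-like protein of microglia, and Siglech, a sialic acid-binding receptor. Their differences were 3.62, 3.72 and 1.39.

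The C1q chains moved together. C1qa measured 9.78, 9.79, 4.58 and 2.03 in NEP and 1.33 to 1.80 in GNP. C1qb measured 10.15, 9.98, 5.38 and 2.49 against 1.55 to 2.08, and C1qc 9.75, 9.72, 4.30 and 1.97 against 1.63 to 1.82. For all 3 chains every NEP array exceeded every GNP array, while the GNP group was dim. The differences were 5.04 ± 1.21 for C1qa, 5.19 ± 1.15 for C1qb and 4.73 ± 1.21 for C1qc (limma, adjusted p = 0.00141, 0.000719 and 0.00234).

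Genes of pattern recognition and phagocytosis were higher in NEP in 6 of 6 tested cases. Ctss, the lysosomal protease cathepsin S, measured 10.27, 10.54, 6.58 and 3.33 in NEP and 1.79 to 2.25 in GNP. No NEP array overlapped GNP, and the difference was 5.64 ± 1.04 (limma, adjusted p = 0.000144). Cd68, a lysosomal glycoprotein, Ly86, a partner of Toll-like receptor relatives, Cd14, a receptor for lipopolysaccharide, and Tlr2, a receptor for bacterial lipoproteins, differed by 3.37, 4.46, 2.62 and 1.46. Tlr4, the receptor for lipopolysaccharide, measured 3.66, 3.33, 1.18 and 1.18 in NEP, and Cd86, a costimulatory protein, 5.58, 5.47, 1.81 and 1.40. These 2 genes, and the integrin chain Itgam (CD11b), did not pass the filter and were above the array median on NEP arrays 1 and 2 only. Mertk, a receptor for apoptotic cells, behaved otherwise, with 6.76, 6.46, 4.93 and 4.78 in NEP against 1.69 to 2.15 in GNP. All 4 NEP arrays were well above GNP, and the difference was 3.87 ± 0.33 (limma, adjusted p = 2.77e-08).

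All 4 of the broad leukocyte genes were higher in NEP: Ptprc (CD45), Cd53, a tetraspanin, Laptm5, a lysosomal protein, and Aif1 (IBA1), an actin-binding protein. Ptprc measured 7.32, 7.27, 2.56 and 1.42 in NEP and 1.22 to 1.57 in GNP, so that array 4 was within the GNP range. Of the transcription factors, Spi1 measured 4.90, 4.99, 2.37 and 2.26 in NEP and 2.06 to 2.43 in GNP, and Irf8 measured 6.09, 5.92, 2.21 and 2.14 against 2.62 to 2.77. On arrays 3 and 4, Spi1 was inside the GNP range and Irf8 below it. Sall1 measured 7.22, 7.32, 6.90 and 7.04 in NEP and 2.82 to 3.17 in GNP, with no step between the pairs of the size of the other genes. Its difference was 4.12 ± 0.14 (limma, adjusted p = 1.28e-13), while another probe set of Sall1 gave 1.12 (limma, adjusted p = 2.13e-08). Among the secreted members, Olfml3, a matrix protein of microglia, measured 7.82, 7.87, 2.74 and 2.54 in NEP and 2.16 to 2.66 in GNP. The chemokines Ccl3 and Ccl4 measured 8.49, 8.38, 2.68 and 1.67, and 5.52, 5.37, 2.80 and 2.62. The 3 secreted genes were higher in NEP by 2.93, 3.51 and 1.38, and each overlapped GNP on at least 1 of arrays 3 and 4.

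NEP arrays 1 and 2 were left out for their high level of these same genes, so a smaller difference without them follows from that choice. Without them, the call stood for 14 of the 31 genes and 0 genes were lower. The median difference dropped to 0.52 (27.1% of all genes higher, 33.2% lower). The 14 were Sall1, Mertk, Csf1r, Ctss, C1qa, C1qb, C1qc, Tyrobp, Laptm5, Cd53, Ly86, P2ry12, Fcgr3 and Ptprc. Sall1 kept a difference of 3.97 ± 0.17 and Mertk 2.99 ± 0.17 (limma, adjusted p = 5.24e-12 and 2.49e-10). Csf1r was left with 3.06 ± 0.66, Ctss with 2.91 ± 0.55 and C1qb with 2.12 ± 0.54 (limma, adjusted p = 0.000779, 0.000252 and 0.00299). For these 3 genes array 3 was far above array 4. The other 17 genes had no call, among them Tlr2 (0.16 ± 0.10), Cd14 (0.05 ± 0.18), Spi1 (0.09 ± 0.09) and Irf8 (-0.50 ± 0.22).

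**Figure D3:**
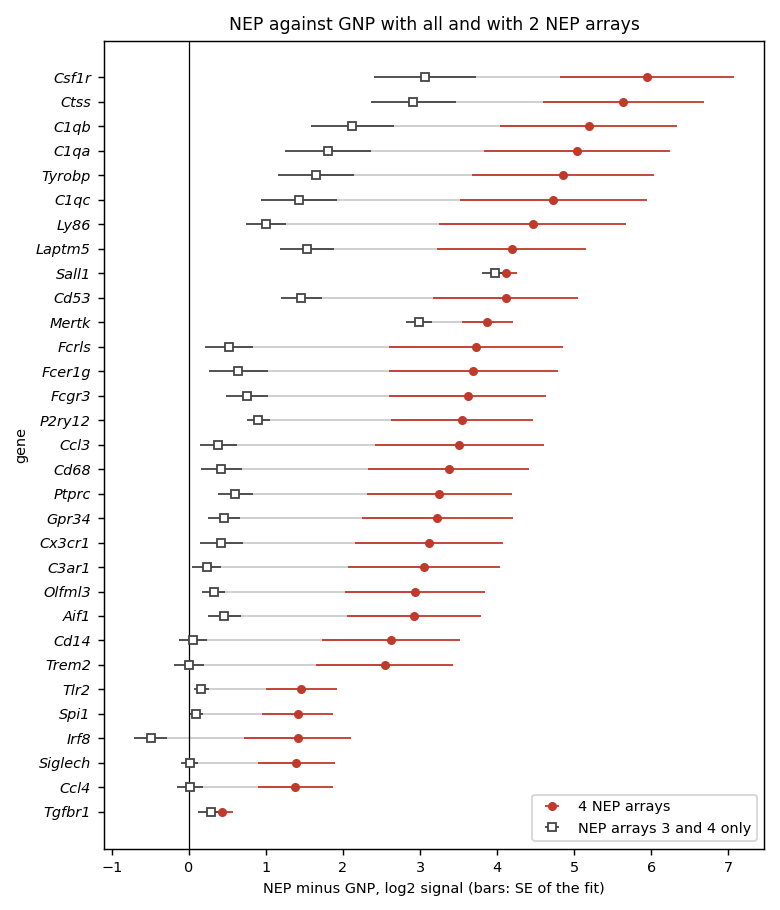
Difference NEP minus GNP (log2, bars are the SE of the fit) of the 31 tested genes, with all 4 NEP arrays and with NEP arrays 3 and 4 only. Sall1 and Mertk keep most of their difference, while most other genes fall to below 1.

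The plot of the 31 differences with and without NEP arrays 1 and 2 shows how far each gene rested on that pair. Markers of other cells moved with it. Of 12 genes listed for macrophages of the brain borders, all were measured, and their median on NEP arrays 1 to 4 was 7.30, 6.96, 2.86 and 2.22, against 1.89 to 2.04 on the GNP arrays. The number at or above the array median was 12, 12, 7 and 4 on NEP and 1 to 3 on GNP. Mrc1, a mannose receptor of such macrophages, measured 10.01, 10.06, 5.83 and 2.42 in NEP, and Lyve1, a hyaluronan receptor, 9.24, 9.42, 4.17 and 2.04. Pericyte, fibroblast and meningeal markers had medians of 9.79, 9.84, 7.22 and 5.93 on NEP, against 2.74 to 3.18 on GNP. Endothelial markers had 5.67, 5.99, 3.27 and 4.19, against 2.05 to 2.52. Granule lineage and neuron markers ran the other way, at 5.88, 5.85, 8.96 and 8.07 on NEP and 10.29 to 10.35 on GNP. Lymphocyte markers stayed between 1.55 and 2.03 on all arrays. The part of these cells in the difference between NEP and GNP was not tested.

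NEP and NSC lie in different runs, which cannot be told apart from the groups. The arrays gave 7 genes higher in NEP (Aif1, C3ar1, Cd14, Mertk, Sall1, Spi1 and Tlr2) and 0 lower (30.9% and 27.6% of all genes), with a median difference of 2.16. A fit of only NEP and NSC called 2 higher, Mertk and Sall1, and 0 lower (24.9% and 22.4% of all genes). In the fit of all groups Sall1 was higher by 2.11 ± 0.16 and Mertk by 2.71 ± 0.36 (limma, adjusted p = 6.42e-09 and 7.43e-06), with every NEP array above every NSC array for both. With NEP arrays 3 and 4 only, 2 genes were higher (again Sall1 and Mertk) and 8 were lower: Ccl3, Ctss, Cx3cr1, Gpr34, Laptm5, Ly86, Olfml3 and P2ry12 (28.9% of all genes higher, 23.9% lower). The median of the 31 then turned to -0.47. Arrays 1 and 2 were set apart by the level of these same genes, so that turn follows in part from the choice of arrays. Leaving out a single array moved the count of higher genes between 2 (without NEP array 1 or 2, or NSC array 1 or 2) and 30 (without NEP array 4), with 25 without NEP array 3 and 3 without NSC array 6.

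The NSC arrays were alike for these genes. Csf1r measured 6.75, 6.59 and 6.67, Ctss 7.06, 6.65 and 6.40, and Tyrobp 5.13, 4.62 and 4.76. All 3 lay above the 4 GNP arrays, which lie in the other run, and below NEP arrays 1 and 2. The receptors Cx3cr1 (4.75, 4.12 and 4.05) and P2ry12 (2.91, 2.64 and 2.86) were higher in NSC than on most tumor arrays. Of the 37 genes 15 were dim in NSC, among them Aif1, Cd14, Spi1, Tlr2 and Tmem119.

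Ctss, Cd68, the leukocyte genes Ptprc, Cd53 and Laptm5, and the chains C1qb and C1qc were among 14 genes lower in NEP tumor than in GNP tumor when the tumor arrays were fitted alone, and were not called when all groups shared 1 estimate of the spread. C1qa and the leukocyte gene Aif1 (-0.48) were not called in either fit. The fit of all 5 groups called 1 gene higher in NEP tumor (Sall1) and 0 lower (15.5% and 8.1% of all genes), with a median difference of -0.46 (range -1.30 to 0.66), against 0.05 for all genes. A fit of the 8 tumor arrays alone called 2 genes higher and 14 lower, where the rates over all genes were 19.3% and 11.5%. The 2 higher genes were Sall1 and Olfml3. Lower were Csf1r, Tyrobp, Fcgr3, C1qb, C1qc, Cd14, Cd68, Ctss, Ptprc, Cd53, Laptm5, Spi1, Ccl3 and Ccl4. For 11 of the 37 genes every GNP tumor array was above every NEP tumor array: all of these 14 but Csf1r, Tyrobp and C1qc. The share of all genes that separated in this way was not counted.

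The levels show 2 patterns among the lower genes. Ptprc measured 3.93, 4.06, 4.35 and 3.81 in NEP tumor and 5.25, 5.18, 5.15 and 5.11 in GNP tumor. Fcgr3 measured 3.01, 2.93, 3.02 and 3.17 against 4.23, 4.27, 4.07 and 4.59, and Cd14 2.18, 2.35, 2.33 and 2.22 against 3.18, 3.63, 3.68 and 3.21. These 3 genes were even across the NEP tumor arrays and did not overlap between tumors. In the fit of the tumor arrays their differences were -1.14 ± 0.11, -1.26 ± 0.11 and -1.15 ± 0.12 (limma, adjusted p = 0.000153, 8.18e-05 and 0.000249). Ctss measured 7.64, 7.47, 8.46 and 8.21 in NEP tumor and 9.28, 9.17, 9.17 and 9.19 in GNP tumor, again without overlap, with a difference of -1.26 ± 0.19 (limma, adjusted p = 0.00155), or 2.39-fold. Spi1 was lower by a small amount, with 2.35, 2.38, 2.44 and 2.29 against 2.72, 2.64, 2.81 and 2.69. The chemokines followed, with Ccl3 at 3.15, 3.32, 3.95 and 3.48 against 4.29, 4.30, 4.09 and 4.32, and Ccl4 at 2.92, 3.19, 3.43 and 3.29 against 3.70, 3.50, 3.70 and 3.76. Neither chemokine overlapped between the tumors, and their differences were -0.77 and -0.46.

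In the other pattern, NEP tumor arrays 3 and 4 came near to the GNP tumor. C1qa measured 4.70, 4.95, 6.84 and 6.16 in NEP tumor and 6.71, 6.82, 6.53 and 6.73 in GNP tumor. NEP tumor array 3 was thus above all 4 GNP tumor arrays, and the difference of -1.03 ± 0.41 was not called (limma, adjusted p = 0.0833). C1qb measured 5.01, 4.93, 6.38 and 6.06 against 6.65, 6.93, 6.97 and 6.85, and C1qc 3.77, 3.61, 5.46 and 4.59 against 5.41, 5.84, 5.73 and 5.65. Their differences were -1.26 ± 0.30 and -1.30 ± 0.35 (limma, adjusted p = 0.013 and 0.0205). Csf1r measured 4.76, 5.03, 6.55 and 5.81 in NEP tumor and 6.47, 6.53, 6.56 and 6.80 in GNP tumor, a difference of -1.05 ± 0.33 (limma, adjusted p = 0.0382). Other probe sets of Csf1r gave -0.04 and -0.15. Tyrobp, at 4.97, 4.89, 6.63 and 6.01 against 6.57, 6.72, 6.62 and 6.74, had array 3 inside the GNP tumor range.

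**Figure D4:**
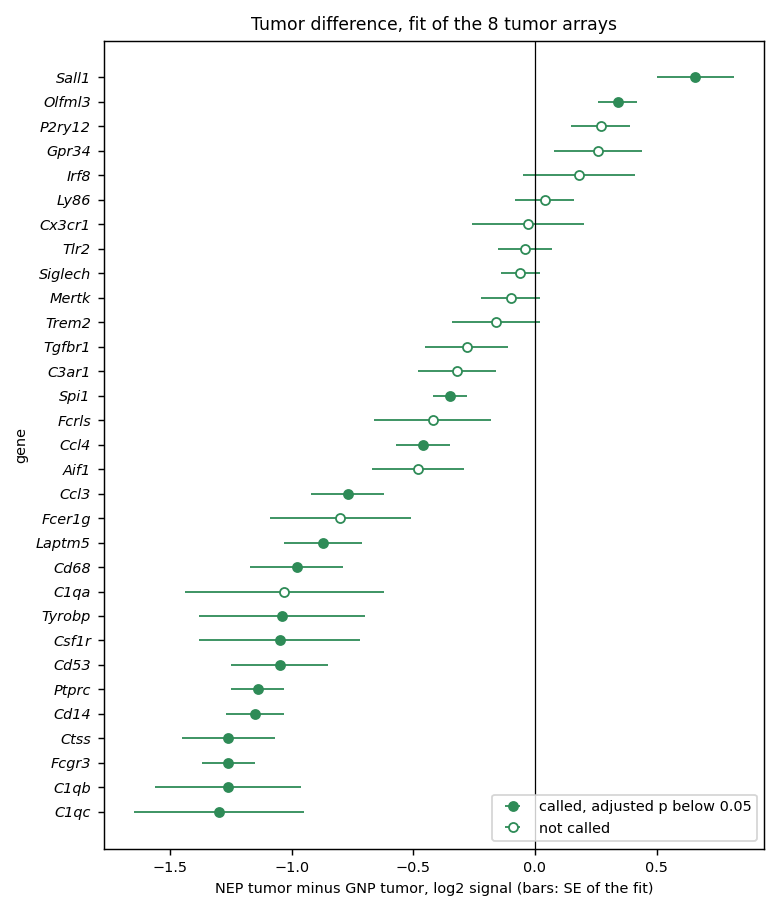
Difference NEP tumor minus GNP tumor (log2, bars are the SE) of the 31 tested genes in the fit of the 8 tumor arrays, with filled points for the 16 called genes. Sall1 and Olfml3 are to the right of 0, and the 14 lower genes to the left run from -0.35 to -1.30.

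In the plot of tumor differences, 3 receptors lay near 0 or above it. Cx3cr1 (-0.03 ± 0.23), P2ry12 (0.27 ± 0.12) and Gpr34 (0.26 ± 0.18) were not called in the fit of the tumor arrays (limma, adjusted p = 0.937, 0.126 and 0.29). P2ry12 was dim in both tumors, and so were Gpr34 and Siglech. Sall1 measured 5.74, 5.50, 4.88 and 5.35 in NEP tumor and 4.82, 4.54, 4.74 and 4.75 in GNP tumor, with no overlap and a difference of 0.66 ± 0.16 (limma, adjusted p = 0.0151). Another probe set of Sall1 gave 0.18 in a fit of all groups and was not called (limma, adjusted p = 0.204). On these arrays Sall1 was lowest on NEP tumor array 3, where Csf1r, C1qa and Tyrobp were highest within their group. Olfml3 measured 2.99, 3.13, 3.29 and 3.17 against 2.72, 2.76, 2.85 and 2.89.

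The pairs of NEP tumor arrays were also taken apart. With arrays 3 and 4 only, the fit of the tumor arrays called 4 genes higher (Gpr34, Irf8, Olfml3 and P2ry12) and 11 lower (19.7% and 12.4% of all genes), and the 11 were those whose groups did not overlap. Gpr34 was then higher by 0.61, Irf8 by 0.58 and P2ry12 by 0.46. With arrays 1 and 2 only, 2 genes were higher and 21 lower (22.8% and 14% of all genes). Of 12 tested genes linked to activated microglia, 6 were lower and 1 (Lpl, at 0.40) higher in NEP tumor in the fit of the tumor arrays. Their median difference was -0.36, and that fit called 11.5% of all genes lower and 19.3% higher. In the fit of all groups 1 of the 12 was lower, Lgals3, against 8.1% of all genes. Lgals3, a galectin, differed by -3.25, Clec7a by -2.23 and Gpnmb, a membrane glycoprotein of phagocytes, by -1.74. Clec7a, a receptor for fungal glucans, measured 3.76, 4.17, 5.26 and 4.81 in NEP tumor and 6.77, 6.67, 6.37 and 7.11 in GNP tumor. The number of measured border macrophage markers at or above the array median was 4 to 6 of 12 in both tumors, and their medians were 2.35 to 2.45. These medians overlapped between the tumors, whereas Mrc1 alone measured 2.44, 2.21, 2.77 and 2.61 in NEP tumor and 4.07, 3.75, 3.30 and 3.27 in GNP tumor. The part of these markers in the tumor difference was not tested.

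The change from GNP to NEP was set against the change from GNP tumor to NEP tumor by a test of the difference between them. Of 31 genes, 24 were lower in that test and 0 higher (25.2% and 36.7% of all genes), with a median of -3.96. Csf1r gave -7.00, Ctss -6.89 and C1qb -6.45, each past the threshold (limma, adjusted p under 0.05). Sall1 gave -3.47, being higher in NEP by 4.12 and in NEP tumor by 0.66. With NEP arrays 3 and 4 only, 21 genes were lower and 0 higher (24.4% and 32.4% of all genes), and the median was -1.15. The smaller size follows in part from leaving out the arrays with the highest levels of these genes. Each of the 2 differences lies within a run, so a constant offset between runs falls out of this test.

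The tumors were compared with NSC within the same run, a comparison chosen after the data were seen. The fit of all groups called 1 gene higher and 1 lower in GNP tumor (22.2% and 25.4% of all genes). These were Ptprc at 2.71 (limma, adjusted p = 0.0359) and Tgfbr1 at -0.67, and the call of Ptprc was lost without any 1 of the 7 arrays compared. It called 0 higher and 1 lower in NEP tumor (23.9% and 20.4%), which was Tgfbr1 at -0.95. With only the groups compared, 21 genes were higher and 8 lower in GNP tumor (30.3% and 34.5% of all genes). For NEP tumor the counts were 11 higher and 5 lower (26% and 23.3%). Both comparisons use the same 3 NSC arrays, so the counts are not independent.

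**Figure D5:**
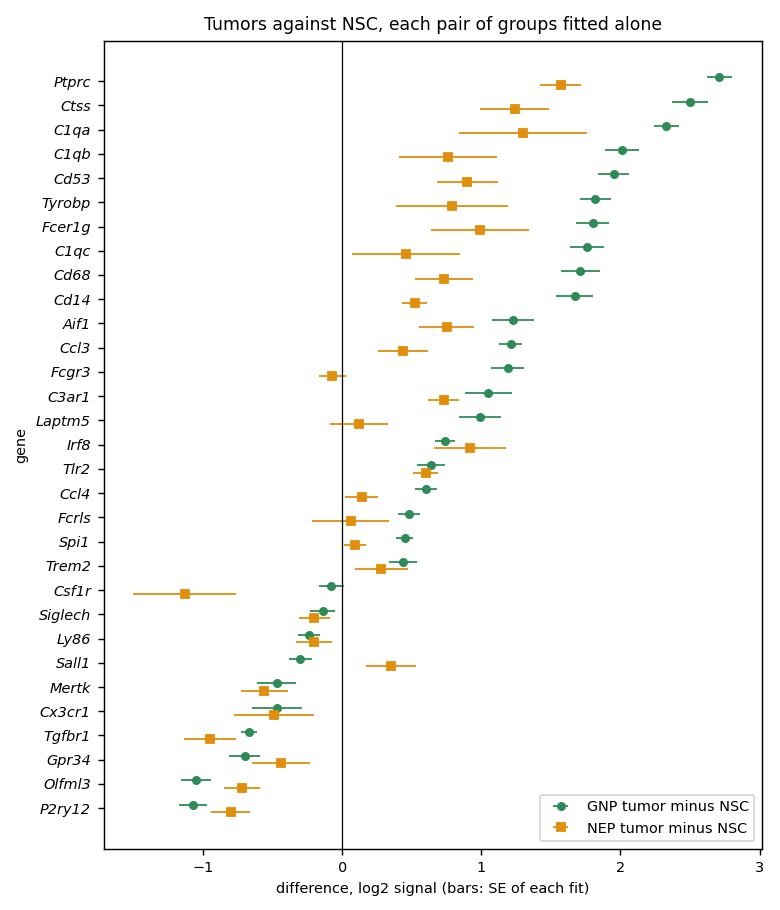
Differences from NSC (log2, bars are the SE) of the 31 tested genes for GNP tumor and NEP tumor, each pair of groups fitted alone. The leukocyte genes, the C1q chains, Ctss and Cd68 lie to the right of 0, and P2ry12, Olfml3 and Tgfbr1 lie to the left in both tumors.

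In the plot of differences from NSC, the 3 C1q chains, the 4 leukocyte genes, Ctss and Cd68 were higher in GNP tumor than in NSC, and genes of 1 role could differ in direction. C3ar1 was higher by 1.05 while the receptors P2ry12 and Gpr34 were lower, and Mertk at -0.47 and Ly86 at -0.24 were lower while Ctss was higher. Ptprc measured 2.52, 2.63 and 2.24 in NSC against 5.11 to 5.25 in GNP tumor, a difference of 2.71 ± 0.09 (limma, adjusted p = 2.46e-08). Ctss was higher by 2.50 ± 0.13 and C1qa by 2.33 ± 0.09 (limma, adjusted p = 4.1e-07 and 3.66e-08). None of these 3 genes overlapped between NSC and GNP tumor. Tyrobp, C1qb and Cd53 were higher by 1.82, 2.01 and 1.95.

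The genes lower in GNP tumor were Cx3cr1, Gpr34, Ly86, Mertk, Olfml3, P2ry12, Sall1 and Tgfbr1. P2ry12 measured 2.91, 2.64 and 2.86 in NSC and 1.58 to 1.87 in GNP tumor, a difference of -1.07 ± 0.10 (limma, adjusted p = 1.34e-05). Gpr34 gave -0.70, Cx3cr1 -0.47 and Olfml3 -1.05, each called lower in GNP tumor. In NEP tumor P2ry12 gave -0.80 and Olfml3 -0.72, both called, whereas Cx3cr1 at -0.49 and Gpr34 at -0.44 were not (limma, adjusted p = 0.184 and 0.126). P2ry12 and Gpr34 were dim in the tumors, so their size there is uncertain. Csf1r gave -0.08 ± 0.09 in GNP tumor, not called (limma, adjusted p = 0.448), and -1.13 ± 0.37 in NEP tumor (limma, adjusted p = 0.0332).

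Markers of other cells were read on the same arrays. Endothelial markers had medians of 5.26, 5.20 and 5.27 in NSC, 2.64 to 3.72 in NEP tumor and 2.49 to 2.72 in GNP tumor. In the fit of only the groups compared, 8 of 8 were lower in GNP tumor and 7 of 8 in NEP tumor, with Kdr at -3.32 and -2.81. Pericyte, fibroblast and meningeal markers had medians of 8.31, 8.19 and 8.22 in NSC, 4.34 to 4.89 in NEP tumor and 4.31 to 4.87 in GNP tumor. Of 10 tested, 8 were lower in GNP tumor and 7 in NEP tumor, where 2 were higher, and Col1a2 was at -4.70 and -5.50. S100a8, a protein of granulocytes, averaged 7.18 ± 0.53 (SD, n = 3) in NSC, 4.89 in GNP tumor and 3.54 in NEP tumor, so it was highest where Ptprc was lowest. Of 9 measured monocyte and granulocyte markers, 4 or 5 were at or above the array median in NSC, 3 or 4 in GNP tumor and 1 to 3 in NEP tumor. Of 10 measured lymphocyte markers, 0 were so in any of the 3 groups. Of 12 tested activated microglia genes, 6 were higher and 2 lower in GNP tumor, and 4 higher and 2 lower in NEP tumor. These were the fits of only the groups compared, which called 30.3% of all genes higher and 34.5% lower in GNP tumor. For NEP tumor the rates over all genes were 26% and 23.3%. The part of these markers in the differences from NSC was not tested.

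Each tumor was compared with its progenitor across runs, so run and group cannot be told apart here. Against GNP, 11 genes were higher and 1 lower in GNP tumor (18.5% and 31.4% of all genes), with a median difference of 1.76. Only the groups compared gave 29 higher and 1 lower (23.6% and 35.4%), where Tgfbr1 was lower and Siglech had no call. Ctss, the gene that differed most, went from 1.79 to 2.25 in GNP to 9.17 to 9.28 in GNP tumor, a difference of 7.16 ± 1.04 (limma, adjusted p = 2.37e-05). Markers of other cells moved too. Of 12 neural stem cell and glial markers, 12 were higher in GNP tumor, with S100b at 5.86 and Aqp4 at 5.49, and 5 of 10 pericyte, fibroblast and meningeal markers, with Dcn at 3.44. Against NEP, 0 genes were higher and 11 lower in NEP tumor (36.2% and 32.6% of all genes), with a median of -1.76. A fit of only these groups called 3 lower and 0 higher (27.2% and 30.6%). With NEP arrays 3 and 4 only, 21 were higher and 3 lower (31.2% and 30.4%), and the median was 0.82. The 3 lower genes were Mertk, Sall1 and Tgfbr1 in both of these fits. NEP arrays 1 and 2 were left out for their high level of the listed genes, so the 21 higher genes follow in part from that choice. In the fit of all groups, 6 of 8 tested border macrophage markers were lower in NEP tumor than in NEP, with Mrc1 at -4.57. So were 8 of 10 pericyte, fibroblast and meningeal markers, with Col1a2 at -6.07, and 8 of 12 neural stem cell and glial markers, with Tnc at -7.41. Against these, Kcnj8 and Pdgfra of the former list were called higher, at 1.04 and 0.59. So were S100b and Sox9 of the latter, at 1.01 and 0.93. Of the granule lineage and neuron markers, 11 of 12 were higher. The part of these markers in the differences between tumors and progenitors was not tested. Leaving out 1 array moved the 11 lower genes to between 4 (without NEP array 1 or 2) and 28 (without NEP array 4), with 21 without NEP array 3 and 6 without NEP tumor array 1, 2 or 4.

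The genes were also set beside Csf1r as a description of how alike they were over arrays. Pearson's r with Csf1r over the 19 arrays had a median of 0.837 and ran from 0.25 (Tgfbr1) to 0.962 (Laptm5), with C1qb at 0.95, C1qc at 0.949 and Tyrobp at 0.945. Over the 17 arrays without NEP 1 and 2 the median was 0.71, and Laptm5 (0.92), C1qb (0.906), C1qc (0.892) and Tyrobp (0.885) were again near the top. The arrays fall into groups and share runs, so these values describe the arrays and carry no test.

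Ligands of the listed receptors were measured for all 6 genes on their list, of which 5 were tested. Of these 5, 4 were higher in NEP than in GNP, against 29.6% of all genes. Gas6, a ligand of Mertk, measured 8.42, 8.26, 5.74 and 6.18 in NEP and 2.56 to 3.11 in GNP, a difference of 4.45 ± 0.44 (limma, adjusted p = 1.48e-07). Csf1, a ligand of Csf1r, measured 7.79, 7.73, 5.21 and 5.09 against 3.32 to 3.58, a difference of 3.05 ± 0.47 (limma, adjusted p = 2.2e-05). All NEP arrays were above GNP for both ligands. Tgfb1 and Pros1, a further Mertk ligand, were higher by 1.98 and 1.06, mostly on NEP arrays 1 and 2. On arrays 3 and 4 Tgfb1 measured 2.01 and 2.13, and it was 5.54 on array 2, against 1.65 to 1.78 in GNP. Pros1 measured 7.02, 7.05, 5.37 and 4.96 against 4.86 to 5.36, so that array 4 lay within the GNP range. Cx3cl1, the ligand of Cx3cr1, was not called (-0.09). Between the tumors, Pros1 alone was called among the 5, at 0.58 ± 0.13 in the fit of the tumor arrays (limma, adjusted p = 0.0089).

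Genes that act beside the listed ones were counted too. Of 10 tested genes of ITAM signalling and integrin partners, 8 were higher in NEP than in GNP, against 29.6% of all genes. Among them were the integrin chain Itgb2 (2.04), the lipid phosphatase Inpp5d (1.69) and the adaptor Lcp2 (1.49). The fit of only these groups called 1 of the 10, where 25.5% of all genes were higher. NEP arrays 3 and 4 gave 2 higher and 1 lower, where 27.1% of all genes were higher and 33.2% lower. Between the tumors 4 of the 10 were lower in NEP tumor in the fit of the tumor arrays, against 11.5% of all genes. Itgb2 was at -0.72, the kinase Syk at -0.48 and Inpp5d at -0.47. Of 6 tested complement genes other than C1q, 4 were higher in NEP than in GNP, against 29.6% of all genes. They were led by Masp1, a protease of the lectin pathway, at 2.32, and Cd59a, an inhibitor of the terminal complex, at 1.10. NEP arrays 3 and 4 alone also gave 4, against 27.1% of all genes.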

How the data were processed

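RNA from 19 samples was labelled from 100 ng with the Ambion WT Expression kit and hybridised to Mouse430+2 arrays, per the labels' protocols. The submitters' processing notes name Affymetrix Expression Console and RMA as the tools behind the deposited log2 expression values. No version is given in the sources used here, and the base of the logarithm was taken from the RMA method and the range of the values (0.29 to 13.37). RMA corrects background and quantile-normalizes arrays together, so a group's levels depend on all arrays. Precision is limited by the number of arrays per group.

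Of 45101 probe sets, 34945 carried 1 gene symbol, 932 several and 9160 none, and 64 were controls. Symbols were matched by gene ID for 34741 probe sets. The probe set with the highest mean stood for a gene. Genes at or above the array median on at least 3 arrays were fitted with limma 3.58.1 (R 4.3.3), with a mean per group and Benjamini-Hochberg adjustment over 12148 genes, and called at 0.05. Summaries and plots used Python 3.11.15, pandas 2.3.3 and matplotlib 3.10.9. The fit was tested on simulated data in which a gene had the same spread in all groups. The listed genes vary far more in NEP, so that test does not cover the pooled spread here. Of 171 pairs of arrays, 0 held identical values. Samples were grouped by their labels. Same-numbered arrays of NEP and GNP had deviations that correlated between -0.158 and 0.071, and those of the tumors between -0.043 and 0.052, so the numbers were not taken to pair arrays.

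All listed genes are named. Values are given on every array for those the results turn on, and of other gene lists the called genes that differed most (at most 3 a direction). The members and the lists were chosen with earlier results of these data known. Comparisons of tumors with NSC, and fits of single pairs of NEP tumor arrays within the tumor arrays alone, were chosen after the data were seen. Alternatives covered the filter, the probe set, the normalization, the variance model, array weights, the arrays fitted, the replicate number and leaving out arrays.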

Additional observations from a re-analysis of the deposited data

Results flagged for a closer look

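For 5 of the 148 sets of 4 arrays examined (a gene in a group of 4), the lowest array stood apart from the other 3 by Dixon's criterion, which chance alone meets in about 1 in 20 sets. C3ar1 was 2.01 on NEP tumor array 2. Tmem119 and Cd86 were 1.82 and 1.54 on NEP tumor array 1. Cd53 was 1.49 on GNP array 3, and Ccl3 was 4.09 on GNP tumor array 3. Apart from Ccl3, these levels were in the dim range of the arrays.

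For 24 of 31 genes the difference between the tumors and the difference between the progenitors were themselves different (limma, adjusted p under 0.05). The difference of differences, tumor minus progenitor on the log2 scale, was -7.00 for Csf1r, -3.27 for P2ry12 and -0.71 for Tgfbr1 among the receptors. Among the adaptors and Fc receptors it was -5.90 for Tyrobp, -4.49 for Fcer1g, -4.88 for Fcgr3 and -4.14 for Fcrls, and for C3ar1, a receptor for a complement fragment, it was -3.37. The C1q chains gave -6.07 for C1qa, -6.45 for C1qb and -6.03 for C1qc. Ctss gave -6.89, Cd68 -4.35, Ly86 -4.42, Cd14 -3.77 and Mertk -3.96. The leukocyte genes gave -4.39 for Ptprc, -5.16 for Cd53, -5.07 for Laptm5 and -3.40 for Aif1. Spi1 gave -1.76, Sall1 -3.47, Ccl3 -4.28 and Ccl4 -1.83. NEP arrays 1 and 2 enter every one of these values.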

How the results depend on the processing

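Counts below are of the 31 tested genes (9 with the filter at the 75 percentile). With that filter NEP minus GNP had 9 higher, the test of the difference between both contrasts 9 lower, NEP minus NSC 1 higher, NEP tumor minus NEP 3 lower and GNP tumor minus NSC 0 higher, fewer genes being tested. A fit of only the groups compared gave 12 higher for NEP minus GNP, 2 higher and 14 lower for NEP tumor minus GNP tumor, 2 higher for NEP minus NSC, 3 lower for NEP tumor minus NEP and 29 higher for GNP tumor minus GNP. It gave 21 higher and 8 lower for GNP tumor minus NSC and 11 higher and 5 lower for NEP tumor minus NSC. The replicate number as a block gave 12 higher for NEP minus GNP, 2 higher and 14 lower between the tumors, 3 lower for NEP tumor minus NEP, 29 higher for GNP tumor minus GNP and 21 lower for the difference of differences. The numbers were not taken to pair the arrays, and the labels do not say whether they do. Apart from the difference of differences (22 lower without the block), these counts were those of the fit of only the groups compared. The block was not run for comparisons with NSC. Array weights gave 8 lower between the tumors, 31 higher for NEP minus NSC, 31 lower for NEP tumor minus NEP, 25 higher for GNP tumor minus GNP, 19 higher and 4 lower for GNP tumor minus NSC and 12 higher and 2 lower for NEP tumor minus NSC. The mean of all probe sets gave 1 higher for NEP tumor minus NSC.

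With NEP arrays 3 and 4 only, NEP minus GNP had 14 higher, NEP minus NSC 2 higher and 8 lower, and NEP tumor minus NEP 21 higher and 3 lower. With NEP arrays 1 and 2 only, NEP minus NSC had 31 higher and NEP tumor minus NEP 31 lower. With NEP tumor arrays 3 and 4 only, the tumors had 0 higher, the difference of differences 14 lower and NEP tumor minus NEP 3 lower. With NEP tumor arrays 1 and 2 only, the tumors had 1 lower, NEP tumor minus NEP 4 lower and NEP tumor minus NSC 1 higher. In fits of only the groups compared, NEP tumor arrays 3 and 4 gave 4 higher and 11 lower between the tumors, and 18 higher and 4 lower against NSC. NEP tumor arrays 1 and 2 gave 2 higher and 21 lower, and 12 higher and 8 lower. Leaving out 1 array gave 0 to 1 lower between the tumors (1 without NEP tumor array 3), 2 to 30 higher for NEP minus NSC, 4 to 28 lower for NEP tumor minus NEP, 0 higher for GNP tumor minus NSC and 0 to 1 higher for NEP tumor minus NSC (1 without NEP tumor array 3).

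With NEP arrays 3 and 4 only, signs turned as follows, among results called with or without NEP arrays 1 and 2. Arrays 1 and 2 were set apart by the level of these same genes, so the turns are in part set by that choice. Sign turns of genes called in neither fit are not listed. Examples are Irf8 (-0.50) in NEP minus GNP, and Csf1r (-1.31), C1qa (-1.05) and Tyrobp (-1.0) in NEP minus NSC. In NEP minus GNP, Trem2 was -0.0016. In NEP minus NSC, Aif1 was -0.065, C3ar1 -0.13, Ccl3 -0.86, Cd14 -0.14, Ctss -1.75, Cx3cr1 -0.92, Gpr34 -0.77, Laptm5 -1.14, Ly86 -1.30, Olfml3 -1.22 and P2ry12 -0.57. In NEP tumor minus NEP, Aif1 was 0.82, C1qa 2.36, C1qb 1.66, C1qc 1.22, C3ar1 0.85, Ccl3 1.30, Ccl4 0.49, Cd14 0.66, Cd53 1.29, Cd68 1.07, Csf1r 0.17, Cx3cr1 0.43 and Fcer1g 1.46. Fcgr3 was 0.36, Fcrls 0.82, Gpr34 0.34, Irf8 1.47, Laptm5 1.26, Ly86 1.10, Olfml3 0.50, Ptprc 2.04, Spi1 0.048, Tlr2 0.49, Trem2 0.56 and Tyrobp 1.79. In the same comparison Ctss was -1.50 with array weights and -2.46 with NEP arrays 1 and 2 only. Fcrls was -0.41 in NEP tumor minus NSC with NEP tumor arrays 1 and 2 in a fit of only those groups. The cause was not tested. Over the listed genes, the comparisons and the alternatives, 3720 results kept their side of the threshold, 264 lost the call and 434 gained it. A further 40 turned sign with a call in at least 1 of the 2 fits. The number of arrays and the dim level of many genes in GNP limit what can be measured.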
